A study of Mus musculus with 6 samples.

Results

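Cholesterol metabolism was examined in gonadotrope cells with a reduced Gs alpha transcript, through 28 genes: the enzymes of cholesterol synthesis, the proteins that control the sterol regulatory element-binding proteins (SREBPs), and carriers that move cholesterol within and out of the cell. Members were found by their symbol in the platform annotation. Of the 28 genes, 25 had at least 1 probe, 48 probes in all out of 45281 on the array, and 3 (Acat2, Hmgcs1 and Fdft1) had no probe under their symbol and were not analysed here. A probe was kept if its signal lay above the background bound of the array, the 95th percentile of the background, on at least 3 of the 6 arrays. Each gene is represented by its brightest kept probe, and the others are given beside it. This left 36 probes of 23 genes, out of 21535 probes and 11442 genes. Idi1 and Abca1 had a single probe each, brighter than the bound on 1 array and 0 arrays, and no comparison is given for them.

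The cells were LβT2, a mouse line of pituitary gonadotropes that was derived from a tumour driven by a viral oncogene under the luteinizing hormone beta promoter, with the mouse strain labelled CB6F1/J. They were transfected for 48 h with Gas siRNA (3 arrays) or with scrambled siRNA (3 arrays). All cells were of 1 line, kept in medium with 10% fetal bovine serum, a source of lipoprotein cholesterol. Separate cultures are not stated for the arrays of a group, so each p-value reflects only array-to-array spread that could be technical. The number and sequence of the siRNAs are not stated either. All 9 gonadotrope markers with a probe, including Cga, Lhb, Gnrhr and Nr5a1, lay above background on all 6 arrays. Of 7 markers of other pituitary endocrine cells with a probe, Gh and Drd2 lay above it on all 6 arrays, and Prl, Pomc, Tshb, Tbx19 and Ghrhr on none. The summed level of these 7 was 712.7 to 820.4 with Gas siRNA, against 783.6 to 840.4 with scrambled siRNA, with overlap. Gas was read as Gs alpha, the product of Gnas, and the brightest Gnas probe was 7.51-fold lower with Gas siRNA (log2 difference -2.91, limma adjusted p = 6.08e-20).

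In cholesterol synthesis, acetyl-CoA units are built through mevalonate into farnesyl diphosphate, joined into squalene, closed into lanosterol and trimmed to cholesterol. SREBP-2, from Srebf2, and SREBP-1, from Srebf1, are membrane-bound transcription factors of this pathway. Scap escorts them from the endoplasmic reticulum to the Golgi for cleavage when sterols are low, and the Insig proteins hold the complex back when sterols are high. Insig1 and most of the synthesis enzymes are themselves SREBP targets. Cholesterol taken up with lipoproteins leaves the lysosome through Npc2 and Npc1, and Abca1 and Abcg1 export it from the cell.

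Most of the measured genes were slightly lower with Gas siRNA, and 1 passed the test. The lysosomal cholesterol exporter gene Npc1 fell on its brightest probe, 0 members rose, and 22 did not pass at an adjusted p under 0.05 (limma, adjusted over all kept probes). Over all genes, 1.71% changed in either direction, 0.979% fell and 0.734% rose. The log2 difference, Gas siRNA minus scrambled siRNA, was below 0 for 19 of the 23 members, against 50.1% of all genes, and the median was -0.15, against -2e-04 over all genes. At an unadjusted p under 0.05 there were 4 lower members and 1 higher member, where 5.65% of all genes were lower and 5.68% higher. Values on the 3 arrays of each group were fully separated for 7 lower members and 1 higher member, where 8.38% and 7.73% of all genes did not overlap in these directions. Counted by probe, 30 of the 36 kept probes had a difference below 0, against 49.3% of all kept probes, and 1 fell, where 0.683% of all kept probes fell and 1.21% changed in either direction. Less RNA per cell and fewer cells with the RNA cannot be told apart in such bulk samples. The count of members changed was 1 when any single array was left out, except that it was 2 without scrambled siRNA replicate 2, when Sqle also passed. It was 0 without an intensity trend in the variance and 0 with the probes of a gene averaged, with 4 and 5 members at an unadjusted p under 0.05.

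**Figure D1:**
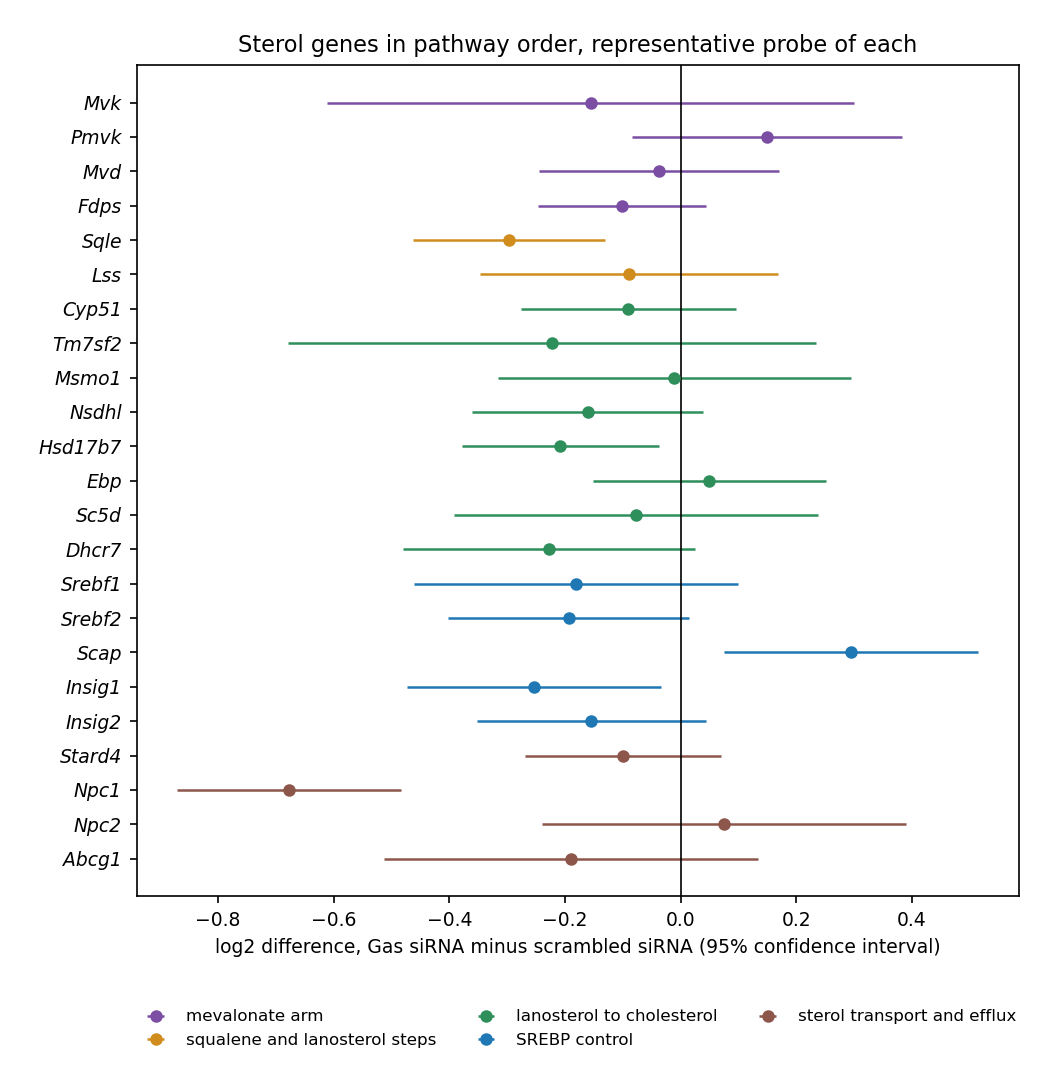
Log2 difference between Gas siRNA and scrambled siRNA (x axis) for the representative probe of each of the 23 measured members, in pathway order from top to bottom, with 95% confidence intervals as lines and colours for the role. Most points lie left of 0, and Npc1 stands apart at -0.68, with Scap at 0.29 the highest.

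The median size of a difference between group means was about that of the spread between single arrays. That spread is not the standard error of a difference, which is given below as SE for some genes. The median SD within groups was 0.13 log2 over the members and 0.15 over all genes, and the median absolute difference was 0.16 over the members and 0.11 over all genes. Levels of different genes are not set against each other below, because each probe binds with its own efficiency. Values per array are normalized log2 intensities, given in the order of replicates 1, 2 and 3.

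The mevalonate arm makes the isoprenoid units. None of its 4 measured genes passed, with unadjusted p-values from 0.166 to 0.711, and their median log2 difference was -0.070. Mevalonate kinase (Mvk) had a difference of -0.16 with a 95% confidence interval from -0.61 to 0.30, the widest of this group, on a dim probe. Phosphomevalonate kinase (Pmvk) had a difference of 0.15 (interval -0.08 to 0.38) and was the 1 gene of this arm above 0. Mevalonate diphosphate decarboxylase (Mvd) had -0.04 (-0.25 to 0.17). Farnesyl diphosphate synthase (Fdps), which makes the last intermediate shared by sterols and other isoprenoids, had -0.10 (-0.25 to 0.04), and its dimmer probe had -0.28 (-0.74 to 0.17). The intervals of Fdps and Mvd leave out a fall of 0.3 on their brightest probes, whereas that of Mvk does not. The probe of Idi1, which encodes isopentenyl diphosphate isomerase, had intensities of 121.2, 149.4 and 137.7 with Gas siRNA, against 136.7, 135.3 and 135.7 with scrambled siRNA, around a background bound of 143 to 144.

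Squalene epoxidase (Sqle), a rate-limiting oxygenase of the sterol branch, had the smallest p-value among the enzymes. Its brightest probe (ILMN_2737163) read 11.48, 11.53 and 11.56 with Gas siRNA, against 11.80, 11.68 and 11.98 with scrambled siRNA. The groups did not overlap, and the spread was wider with scrambled siRNA, whose replicate 3 was the highest array. The log2 difference was -0.30 (SE 0.0812), a level 1.23-fold lower, which did not pass (limma adjusted p = 0.0703, unadjusted p = 0.00106). A second probe (ILMN_2600348) read 9.23, 9.12 and 9.18 with Gas siRNA, against 9.24, 9.39 and 9.72 with scrambled siRNA. Its difference was -0.27 (SE 0.112, adjusted p = 0.364), again without overlap, although the closest arrays lay 9.23 with Gas siRNA against 9.24 with scrambled siRNA. Without scrambled siRNA replicate 2, the difference of the brightest probe was -0.37 and passed (adjusted p = 0.0378); without each of the other 5 arrays in turn its adjusted p lay between 0.115 and 0.427. Lanosterol synthase (Lss), which closes the ring system, had -0.09 (SE 0.126, adjusted p = 0.884), and its dimmer probe had 0.10 (adjusted p = 0.919).

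The enzymes between lanosterol and cholesterol, 8 genes with a kept probe each, had a median difference of -0.13, 7 of them below 0, and none passed. Hsd17b7, a ketosteroid reductase of sterol demethylation, read 10.70, 10.71 and 10.84 with Gas siRNA, against 11.02, 10.91 and 10.94 with scrambled siRNA. The groups did not overlap, and the difference was -0.21 (SE 0.0829, unadjusted p = 0.0181, adjusted p = 0.333). Nsdhl, the sterol dehydrogenase of the same demethylation, had 4 kept probes, all with a difference below 0, from -0.29 to -0.15. Its brightest probe (ILMN_2594525) read 10.08, 10.10 and 10.08 with Gas siRNA, against 10.15, 10.11 and 10.48 with scrambled siRNA. Here the groups were separated only narrowly, and scrambled siRNA replicate 3 was the highest array. The difference was -0.16 (SE 0.0978, adjusted p = 0.636), and -0.04 without that array. The next probe (ILMN_2594521) read 9.79, 9.85 and 9.98 with Gas siRNA, against 10.06, 9.99 and 10.27 with scrambled siRNA, without overlap (difference -0.23, adjusted p = 0.370). The reductase Dhcr7, which completes cholesterol, had -0.23 (interval -0.48 to 0.03) with overlapping groups. The sterol reductase Tm7sf2 had -0.22 on a dim probe (-0.68 to 0.23). The lanosterol demethylase Cyp51 had -0.09 (-0.28 to 0.10), the sterol desaturase Sc5d -0.08 (-0.39 to 0.24), the methylsterol monooxygenase Msmo1 -0.01 (-0.32 to 0.29) and the sterol isomerase Ebp 0.05 (-0.15 to 0.25).

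Among the genes that control SREBP, 4 of 5 had groups that did not overlap, where 16.1% of all genes did not overlap in either direction, and none passed the test. Insig1 encodes a retention protein and is itself an SREBP target. Its brightest probe (ILMN_1245272) read 8.84, 8.82 and 8.90 with Gas siRNA, against 9.21, 8.96 and 9.16 with scrambled siRNA. Its difference was -0.25 (SE 0.107, unadjusted p = 0.0255, adjusted p = 0.388). A second Insig1 probe (ILMN_2606693) read 8.79, 8.76 and 8.66 with Gas siRNA, against 9.00, 8.95 and 8.94 with scrambled siRNA, with a difference of -0.23 (adjusted p = 0.478). The groups were apart on both of these probes, but not on the dimmest kept probe, whose difference was -0.01 (interval -0.30 to 0.27). Insig2, the other retention protein, which is not induced by SREBP in the same way, read 9.34, 9.45 and 9.35 with Gas siRNA, against 9.52, 9.55 and 9.54 with scrambled siRNA (difference -0.15, SE 0.0969, adjusted p = 0.655). The Gas siRNA arrays were all lower, and the scrambled siRNA arrays lay close together. The dimmer Insig2 probe overlapped (-0.08, adjusted p = 0.888).

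Srebf2, the main activator of cholesterol synthesis genes, read 9.06, 9.05 and 8.96 with Gas siRNA, against 9.20, 9.23 and 9.22 with scrambled siRNA. The groups did not overlap, and the difference of -0.19 (SE 0.102, interval -0.40 to 0.01) had an adjusted p of 0.547. Its second probe had -0.12 with overlap, and Srebf1, more tied to fatty acid synthesis, had -0.18 (-0.46 to 0.10), also with overlap. Scap was the 1 member of all 23 with higher, non-overlapping values, 9.31, 9.07 and 9.19 with Gas siRNA, against 8.83, 9.00 and 8.86 with scrambled siRNA. Its difference was 0.29 (SE 0.107, unadjusted p = 0.0104, adjusted p = 0.256), on a single kept probe. Srebf2, Insig1 and Insig2 lay lower and Scap higher, each by at most 1.23-fold and none past the threshold.

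**Figure D2:**
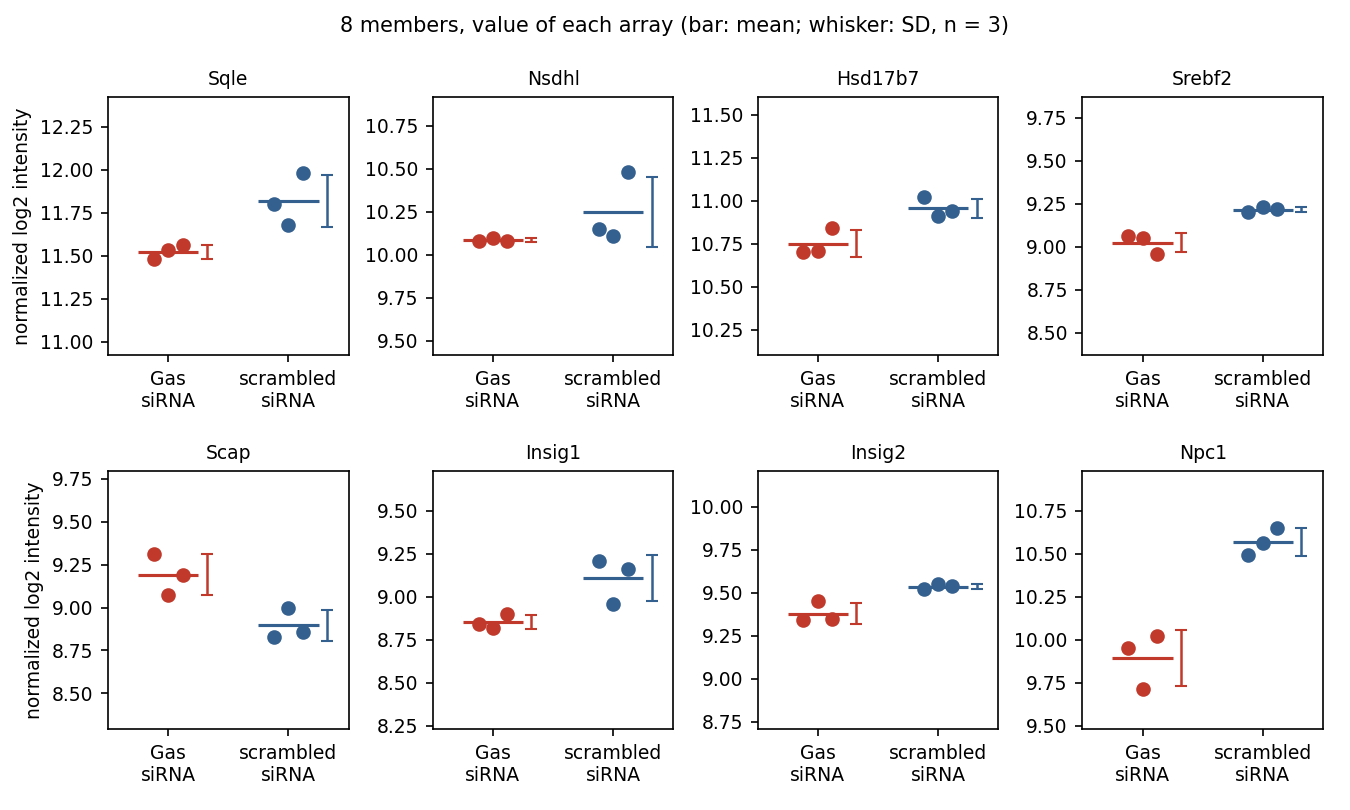
Normalized log2 intensity (y axis) of each array for the 8 members whose groups did not overlap, with Gas siRNA left and scrambled siRNA right in each panel, bars for means and whiskers for the SD of 3 arrays. All panels span 1.5 log2 units, so that the distance between groups can be compared, and it is widest for Npc1, and Scap alone is higher with Gas siRNA.

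The sequences before the starts of 4 of these lower genes are shown because SREBPs act at such sites together with the CCAAT-binding factor NF-Y. They are the 250 bases before the annotated start from RefSeq, build GRCm38.p6, written 5′ to 3′ on the gene's strand, with capitals for 3 motifs: the sterol regulatory element core TCACNCCA, CCAAT, and the E-box CACGTG. All were searched on both strands, so that CCAAT on the other strand reads ATTGG, and no capital stretches overlap.
Insig1, chr5:28071162-28071411, plus strand: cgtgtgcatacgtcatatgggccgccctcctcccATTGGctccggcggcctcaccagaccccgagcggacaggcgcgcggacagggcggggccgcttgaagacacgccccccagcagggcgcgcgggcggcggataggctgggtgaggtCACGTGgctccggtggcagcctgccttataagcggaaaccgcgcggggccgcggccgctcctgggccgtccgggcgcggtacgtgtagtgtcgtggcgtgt
Hsd17b7, chr1:169969206-169969455, minus strand: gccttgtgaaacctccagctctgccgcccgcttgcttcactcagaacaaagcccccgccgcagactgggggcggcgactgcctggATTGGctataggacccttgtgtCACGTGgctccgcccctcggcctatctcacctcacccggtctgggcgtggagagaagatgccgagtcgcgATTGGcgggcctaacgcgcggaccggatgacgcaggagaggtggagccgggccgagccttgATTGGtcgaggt
Nsdhl, chrX:72918271-72918520, plus strand: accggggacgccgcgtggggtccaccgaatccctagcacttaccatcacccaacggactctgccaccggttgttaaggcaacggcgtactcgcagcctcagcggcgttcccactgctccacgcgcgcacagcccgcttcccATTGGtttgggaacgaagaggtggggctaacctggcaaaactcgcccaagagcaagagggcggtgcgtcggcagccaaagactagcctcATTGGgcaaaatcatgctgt
Srebf2, chr15:82147019-82147268, plus strand: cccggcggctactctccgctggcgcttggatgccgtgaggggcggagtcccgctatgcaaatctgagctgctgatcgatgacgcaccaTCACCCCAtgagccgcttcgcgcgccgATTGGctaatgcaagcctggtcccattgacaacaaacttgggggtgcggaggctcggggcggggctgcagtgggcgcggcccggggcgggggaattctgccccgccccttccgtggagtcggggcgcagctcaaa
The Srebf2 window holds the sterol element core, from 162 to 155 bases before the start, followed by a CCAAT box on the other strand from 135 to 131. The Hsd17b7 window has 3 CCAAT boxes and 1 E-box, the Insig1 window 1 of each, and the Nsdhl window 2 CCAAT boxes. Insig2, also lower, has several windows, not shown: 1 holds 3 CCAAT boxes, and the others hold none of the 3 motifs. RefSeq windows were matched for 22 of the 28 genes, 30 windows in all since some genes have several starts. No window was matched for Npc1 or Sqle. CCAAT was found in 66.7% of these 30 windows, against 33.8% of all 32851 windows and 35.1% of the windows of genes with a kept probe. CACGTG was found in 6 of the 30 windows, against 6.02% of all windows and 8.08% of those of genes with a kept probe, and TCACNCCA in 3 of the 30, against 3.67% and 3.28%. The sterol element core was in the windows of Hmgcs1, Msmo1 and Srebf2, and of the 4 windows shown only in that of Srebf2. Msmo1 had a difference of -0.01 (limma adjusted p = 0.989), and Hmgcs1 had no probe. Scap, which was higher, had CACGTG in 1 of its 2 windows and CCAAT in neither. A match is a description of the letters and was not tied to the differences by any test.

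Npc1, the membrane protein that moves cholesterol out of late endosomes and lysosomes, had the largest difference of the 23 members. Its brightest probe (ILMN_2427454) read 9.95, 9.71 and 10.02 with Gas siRNA, against 10.49, 10.56 and 10.65 with scrambled siRNA. The groups were far apart, by more than the spread of either. The level was 1.60-fold lower with Gas siRNA, a log2 difference of -0.68 (SE 0.0949, interval -0.87 to -0.48, limma adjusted p = 8.49e-05). The fall passed without each of the 6 arrays in turn, with adjusted p from 5.42e-05 to 0.00289.

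The other Npc1 probes did not all show this fall. The second brightest (ILMN_1250418) read 8.02, 8.09 and 8.15 with Gas siRNA, against 7.75, 7.98 and 7.99 with scrambled siRNA, with the Gas siRNA arrays higher. Its difference was 0.18 (interval -0.08 to 0.44, adjusted p = 0.718), an interval that does not meet that of the brightest probe. A dim probe (ILMN_1247075) read 5.62, 5.54 and 6.55 with Gas siRNA, against 7.0, 5.95 and 6.61 with scrambled siRNA. These groups overlapped, and the difference was -0.62 (SE 0.246, unadjusted p = 0.0181, adjusted p = 0.333). The fourth kept probe had -0.28 (adjusted p = 0.768), and 3 more Npc1 probes were no brighter than the bound on any array. The platform annotation gives these 3 probes (ILMN_2427454, ILMN_1250418 and ILMN_1247075) the same reference transcript, so it does not tell them apart as isoforms. With the kept probes of each gene averaged, the Npc1 difference was -0.35 and did not pass (adjusted p = 0.296), nor did the brightest probe when the variance was fitted without an intensity trend (adjusted p = 0.180). The fall passed on 1 probe of the 4 kept.

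**Figure D3:**
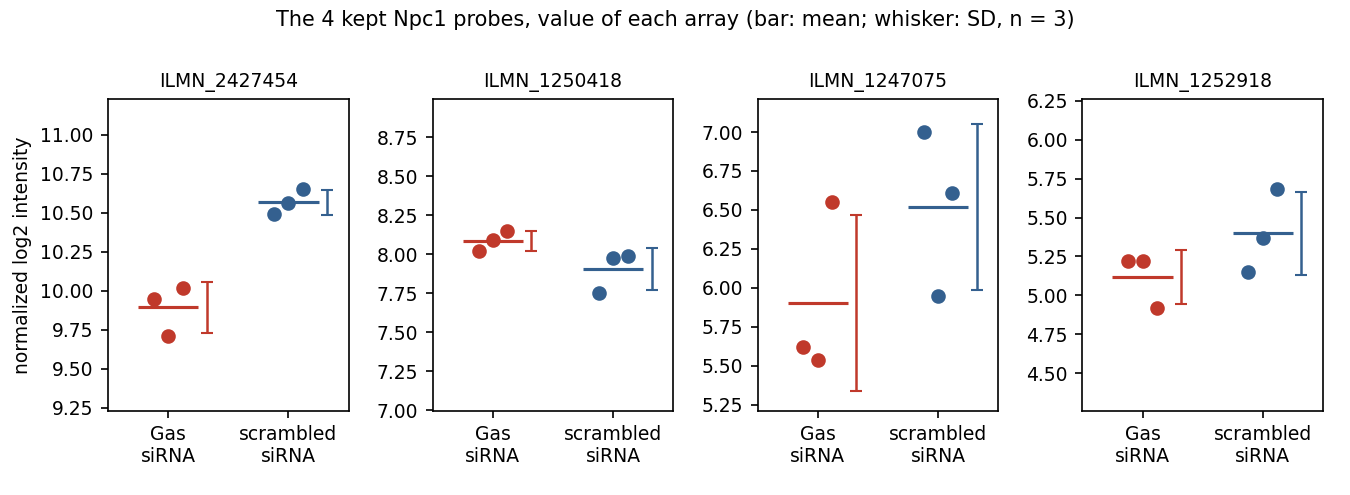
Normalized log2 intensity (y axis) of each array on the 4 kept Npc1 probes, ordered by brightness, with Gas siRNA left and scrambled siRNA right, bars for means and whiskers for the SD of 3 arrays. The brightest probe is lower on all 3 Gas siRNA arrays, the second is higher on them, and the others overlap.

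The other genes of sterol transport did not pass. Npc2, the soluble lysosomal partner of Npc1, had a difference of 0.07 (interval -0.24 to 0.39), with Gas siRNA replicate 2 as its highest array at 8.14 and the other 2 at 7.44 and 7.64, against 7.74, 7.65 and 7.61 with scrambled siRNA. Stard4, a cytosolic sterol carrier, had -0.10 (-0.27 to 0.07). Abcg1, an exporter induced by oxysterol-activated LXR, had -0.19 (-0.51 to 0.13). The Abca1 probe lay below the background bound on all arrays, with intensities between 113.4 and 123.2 with Gas siRNA, against 117.7 to 130.7 with scrambled siRNA, and no difference is given.

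By array, the members lay lower on every Gas siRNA array. The median deviation of the 23 members from their mean over all arrays was -0.12, -0.07 and -0.08 on Gas siRNA replicates 1, 2 and 3, against 0.06, 0.01 and 0.08 on scrambled siRNA replicates 1, 2 and 3. Over all genes it lay between -0.001 and 0.009 on every array. For the 14 synthesis enzymes alone it was -0.12, -0.08 and 0.02 on the Gas siRNA arrays, against 0.08, -0.01 and 0.07 on the scrambled siRNA arrays, so that these overlapped: Gas siRNA replicate 3 lay above scrambled siRNA replicate 2. Of the 23 members, 8, 4 and 6 had their lowest value on Gas siRNA replicates 1, 2 and 3. On scrambled siRNA replicates 1, 2 and 3 it was 1, 3 and 1. Over all genes, each array held the lowest value for 15.1% to 18.7%. The highest value was on Gas siRNA replicates 1, 2 and 3 for 2, 3 and 3 members. On scrambled siRNA replicates 1, 2 and 3 it was 4, 5 and 6. Over all genes, each array held the highest value for 15.5% to 17.5%. The median difference of the members was -0.09 without Gas siRNA replicate 1, the smallest size when 1 array was left out, against -0.15 with all arrays. The summed level of the 7 leukocyte and endothelial markers with a probe was also lower, between 1337 and 1439 on the Gas siRNA arrays, against 1447 to 1546 on the scrambled siRNA arrays. Of these markers, Cdh5 and Pecam1 lay above the bound on all arrays, and Ptprc, Lyz2 and Emcn on none. Of the 4 with a kept probe, 2 had a difference below 0 and 2 above, with a median of 0.004, and none passed. Cdh5 had -0.23 (limma adjusted p = 0.446) with overlapping groups, and Pecam1 had 0.01 (adjusted p = 0.988). The 7 fibroblast and stromal markers with a probe had summed levels of 182.1 to 183.6 with Gas siRNA. With scrambled siRNA these were 178.5 to 209.9, with overlap, and 0 of the 7 lay above the bound on all 6 arrays. The part of either marker list in the result was not tested.

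**Figure D4:**
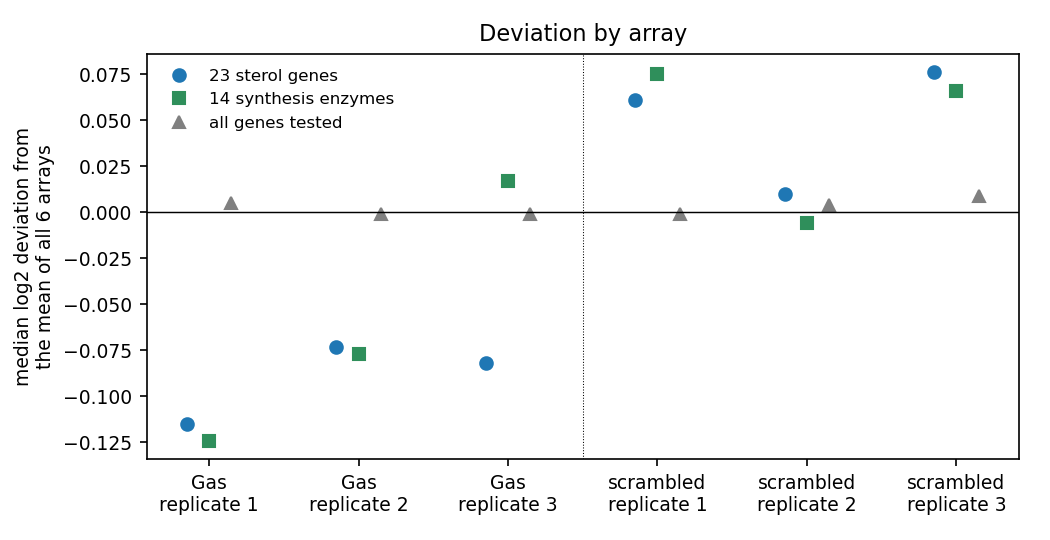
Median log2 deviation from the mean of all 6 arrays (y axis) on each array (x axis), for the 23 measured members, their 14 synthesis enzymes and all 11442 genes tested. All genes stay near 0, the members are below 0 on the 3 Gas siRNA arrays and above 0 on the 3 scrambled siRNA arrays, and the enzymes overlap between the groups.

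Genes near this pathway were read from 5 further lists. Of 16 measured genes for lipoprotein receptors and for lysosomal and membrane sterol handling, 1 fell and 15 did not pass, where 0.979% of all genes fell, and the median difference was -0.002. Scarb1, which encodes the scavenger receptor for high-density lipoprotein, read 7.06, 7.13 and 7.50 with Gas siRNA, against 7.93, 7.91 and 7.81 with scrambled siRNA on its brighter probe. It was 1.57-fold lower (difference -0.65, SE 0.145, adjusted p = 0.0158). The dimmer Scarb1 probe had a difference of 0.33 (adjusted p = 0.715), the average of the kept probes did not pass (-0.16, adjusted p = 0.808), and the call was lost without Gas siRNA replicate 1 (0.101), Gas siRNA replicate 2 (0.0889), scrambled siRNA replicate 1 (0.0657) or scrambled siRNA replicate 2 (0.0716).

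Of 14 measured SREBP-linked fatty acid genes, 3 fell, 11 did not pass and 0 rose, with a median difference of -0.11, where 0.979% of all genes fell and 0.734% rose. The desaturase gene Fads1 read 13.67, 13.66 and 13.55 with Gas siRNA, against 14.01, 13.93 and 14.01 with scrambled siRNA (difference -0.35, SE 0.0652, adjusted p = 0.00257), and passed without each array in turn. The desaturase genes Fads2 (-0.43, adjusted p = 0.0206) and Scd1 (-0.41, adjusted p = 0.0305) also fell. The dimmer Fads2 probe had a difference of -0.15 (adjusted p = 0.711) with overlapping groups. With the kept probes of each gene averaged, Fads2 did not pass (-0.29, limma adjusted p = 0.231). Scd1 has a single kept probe, so its difference stayed at -0.41 in that run, and its adjusted p there was 0.057. Fads2 did not pass without Gas siRNA replicate 2 (0.0573), Gas siRNA replicate 3 (0.153), scrambled siRNA replicate 1 (0.0966) or scrambled siRNA replicate 3 (0.160), and Scd1 without Gas siRNA replicate 1 (0.125), Gas siRNA replicate 3 (0.150), scrambled siRNA replicate 1 (0.173) or scrambled siRNA replicate 3 (0.0898). None of the 12 measured genes of SREBP processing and sterol-regulated degradation, the 6 of the LXR axis and the 14 of the isoprenoid branch passed, and 0 of them had an unadjusted p under 0.05. Their medians were -0.02, 0.02 and 0.08. The smallest p-values there belonged to Pgrmc1, a membrane progesterone receptor component (0.23, adjusted p = 0.622), Cyp27a1, a sterol hydroxylase (0.26, adjusted p = 0.809), and Nus1, a subunit of the enzyme that makes dolichol precursors (-0.26, adjusted p = 0.589).

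**Figure D5:**
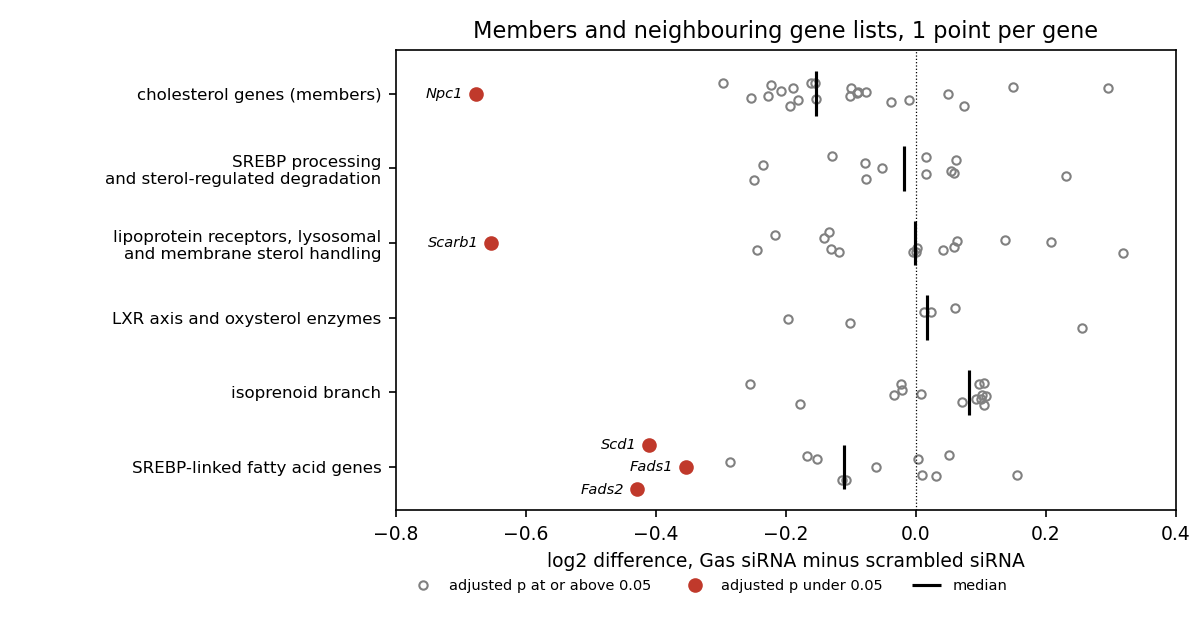
Log2 difference between Gas siRNA and scrambled siRNA (x axis) for each measured member (top row) and each measured gene of 5 neighbouring lists (rows below), with 1 point per gene, a black line at each row's median and red points for an adjusted p under 0.05. The 5 red points all lie left of 0, and the members' median of -0.15 lies left of those of the neighbouring lists.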

How the data were processed

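Per the labels' protocols, biotinylated cRNA of 6 samples was hybridised to Illumina MouseWG-6 BeadChips. The deposited intensity values are linear; the submitters' processing notes name BeadStudio, and no source used here states the normalization. Their sorted columns agreed within 1.67% below the 10 brightest probes, as quantile normalization would leave them. The smallest value, 97.6, lies far above 0, where subtracted background would put dim probes. Another table had 24 columns that match no sample's labels and was not used.

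Background per array was estimated from the mode of the intensities (about 128). Normexp with an offset of 16, quantile normalization and log2 followed. limma 3.58.1 (R 4.3.3; lmFit, eBayes with an intensity trend) was run on all kept probes, 2-sided, with Benjamini-Hochberg adjustment. A gene was represented by its brightest kept probe. The platform annotation gave 34885 probes 1 symbol, 18 several and 10378 none. All 28 members are named, with values per array where the groups did not overlap or the unadjusted p was under 0.05; of each neighbouring list, the changed genes or the one with the smallest p are named. The members and lists were chosen with earlier results of these data known. The procedure was tested on simulated data. Precision is limited by the 3 arrays of each group.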

Additional observations from a re-analysis of the deposited data

How the results depend on the processing

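The 8 members with non-overlapping groups kept their direction under each alternative run, 9 settings and 6 arrays left out in turn. They were chosen because their groups did not overlap, so leaving out 1 array could hardly reverse them, and this adds no support. Of the 23 members tested, 17 to 19 lay below 0. Without a filter on dim probes it was 20 of 25. Without the intensity trend 5 genes changed in all, 1 higher and 4 lower, with 0 member genes, 0 member probes and 0 neighbouring genes changed (limma; 4 members and 6 neighbouring genes had an unadjusted p under 0.05). With probes averaged 115 genes changed, 59 of them lower, with 0 members (5 at an unadjusted p under 0.05) and 1 neighbouring gene, Fads1. With an offset of 50 and with no background correction the median change of members was -0.101 and -0.096, against -0.15. Leaving out 1 array gave 102 to 148 changed genes, 42 to 68 higher and 57 to 80 lower, against 196, 84 and 112 with all arrays: 126, 117 and 114 without Gas siRNA replicates 1, 2 and 3, and 130 and 102 without scrambled siRNA replicates 2 and 3. It gave 1 to 2 member genes and member probes changed, a median change of members from -0.1626 to -0.0928, and 1 to 3 neighbouring genes against 4: 1 without scrambled siRNA replicate 1, 3 without scrambled siRNA replicate 2 and 2 without each other array. The cause of these changes was not tested. Gnas passed in all of them, with a difference of -1.12 when its probes were averaged.

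Replicate numbers were checked for pairing. Deviations of same-numbered arrays correlated at 0.017, 0.06 and 0.096, and those of differently numbered arrays between -0.081 and 0.023. Each scrambled siRNA array correlated most with the Gas siRNA array of its number. Gas siRNA replicate 1 correlated slightly more with scrambled siRNA replicate 2 (0.023) than with replicate 1 (0.017). All these values were small and do not decide whether the numbers are pairs. The main fit did not use pairs. With a replicate block 290 genes changed, 136 of them higher, against 196 and 84 without it. It gave 2 member genes and 2 member probes (Npc1, and Sqle at a limma adjusted p of 0.0242).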

Other observations

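Other genes of lipoprotein handling had small differences that did not pass on their brightest probe and were looked at after their values were seen. Lrpap1, which encodes a chaperone of lipoprotein receptors, read 12.11, 12.11 and 12.24 with Gas siRNA, against 12.41, 12.37 and 12.42 with scrambled siRNA (difference -0.24, SE 0.0722, limma adjusted p = 0.108). Vldlr, the very-low-density lipoprotein receptor gene, had -0.22 on its brightest probe (adjusted p = 0.268). Its second probe read 11.49, 11.46 and 11.26 with Gas siRNA, against 11.66, 11.80 and 11.76 with scrambled siRNA, and fell (-0.34, SE 0.0808, adjusted p = 0.0271), while another probe of similar brightness had -0.04 (adjusted p = 0.913). Nceh1, a cholesteryl ester hydrolase gene, had higher, non-overlapping values, 11.37, 11.38 and 11.63 with Gas siRNA, against 11.36, 11.11 and 11.30 with scrambled siRNA (0.21, adjusted p = 0.380).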
